A study of Mus musculus with 3 samples.

Results

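The enzymes that place and remove methyl groups on lysine 36 of histone H3 were followed as genes: 9 rows of the deposited tables, chosen by their Ensembl identifiers, of 24318 rows with an identifier. They are the 5 methyltransferase genes Setd2, Nsd1, Nsd2, Nsd3 and Ash1l and the 4 demethylase genes Kdm2a, Kdm2b, Kdm4a and Kdm4c. The rule that lists them uses no measured value, although it was written with earlier results of these data known. H3K36me3 was profiled by CUT&Tag, in which an antibody directs a transposase to the mark, in fetal mouse pancreas, from epithelial cells labelled for the surface protein EpCAM and sorted. All embryos were wild-type C57BL/6, and the groups differ only in embryonic day: E11.5, then E13.5, then E15.5, with 1 library each and 3 in all. The labels do not say how many embryos a library holds, and no antibody-free library was used here. The labels give 20000000 sequenced reads as the sample average; how many of them lie behind each deposited file is not stated. With 1 library per stage there is no measure of spread between embryos, no test was possible, and every difference below is a size in these libraries. The epithelial identity was not checked against Epcam or other markers, since the reference paired none of the deposited identifiers with a symbol (0 matched). Other genes of the pathway were not analysed here for the same reason.

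H3K36me3 lies over the bodies of transcribed genes and is known to increase towards their far end. SETD2, which travels with elongating RNA polymerase II, adds the third methyl group, and the NSD enzymes and ASH1L mainly add the earlier ones. KDM2A and KDM2B remove the lower methylation states, and the KDM4 enzymes remove the trimethyl state of H3K36 as well as that of H3K9. The signal over one of these genes describes the chromatin of the gene itself and not the amount or activity of its enzyme.

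The tables give 3 values per gene and library, headed PR, GB and SE, which the headers do not spell out. All are mean signal per position of a window. PR and SE sums over 6000 and 12000 positions came out as whole multiples of a single step per library (0.161884, 0.167429 and 0.162919 in stage order), and SE was taken to include the positions of PR. If the signal at a position is itself a whole number of steps, the number of steps in a window is the most positions that can carry any signal. That condition was not tested. Where a step stands for something else, such as a read covering many positions, the limit does not hold. All PR and SE step counts of the 9 genes were even. For these genes the search for whole steps also gave the length of the GB window. It equalled the RefSeq gene length on GRCm38.p6 (the mm10 assembly) exactly for Nsd1 (108544 positions), Nsd3 (118067) and Kdm4c (163368, taken as 2 times the smallest length that passed, 81684). It came to between 98.01 and 99.89% of that length for Setd2 (86037 of 86134), Kdm2a (80931 of 82578), Kdm2b (118425 of 118607) and Kdm4a (43040 of 43134). The windows of Ash1l (113564 of 128962) and Nsd2 (54855 of 77291) were shorter, at 88.06% and 70.97%. GB is therefore read as the gene body, and the places of PR and SE along the gene are not assumed.

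In that RefSeq annotation the methyltransferase genes lie on chromosome 9 from 110532500 to 110618633 (Setd2, ENSMUSG00000044791), chromosome 13 from 55209782 to 55318325 (Nsd1, ENSMUSG00000021488), chromosome 5 from 33820676 to 33897966 (Nsd2, ENSMUSG00000057406), chromosome 8 from 25601601 to 25719667 (Nsd3, ENSMUSG00000054823) and chromosome 3 from 88950414 to 89079375 (Ash1l, ENSMUSG00000028053). The demethylase genes lie on chromosome 19 from 4316144 to 4398721 (Kdm2a, ENSMUSG00000054611), chromosome 5 from 122870664 to 122989270 (Kdm2b, ENSMUSG00000029475), and chromosome 4 from 118136957 to 118180090 (Kdm4a, ENSMUSG00000033326) and from 74242497 to 74405864 (Kdm4c, ENSMUSG00000028397). A window as long as its gene spans exons and introns alike.

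RefSeq start sequences of 300 bases (250 before and 50 after a start, GRCm38.p6) were held for 4 of the 9 genes, with 8 starts in all. Those shown belong to the 3 of these 4 genes whose PR values, given further on, differed most between E11.5 and E15.5. CG pairs are in capitals because the CXXC zinc fingers of KDM2A and KDM2B bind unmethylated CG, which reads the same on both strands and cannot overlap itself.
Setd2, chr9:110532347-110532646, plus strand: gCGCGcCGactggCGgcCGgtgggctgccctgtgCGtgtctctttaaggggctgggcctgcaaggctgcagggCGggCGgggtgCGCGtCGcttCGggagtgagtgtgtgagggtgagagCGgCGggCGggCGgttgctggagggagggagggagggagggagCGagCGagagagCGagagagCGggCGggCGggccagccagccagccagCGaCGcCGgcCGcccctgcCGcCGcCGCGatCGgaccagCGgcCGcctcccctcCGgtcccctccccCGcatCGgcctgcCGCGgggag
Kdm4a, chr4:118179994-118180293, minus strand: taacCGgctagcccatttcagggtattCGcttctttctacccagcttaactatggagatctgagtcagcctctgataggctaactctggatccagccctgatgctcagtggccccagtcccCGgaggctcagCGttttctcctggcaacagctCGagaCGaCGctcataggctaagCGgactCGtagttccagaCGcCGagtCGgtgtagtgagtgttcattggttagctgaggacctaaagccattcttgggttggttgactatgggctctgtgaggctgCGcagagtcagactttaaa
Kdm4c, first start, chr4:74242247-74242546, plus strand: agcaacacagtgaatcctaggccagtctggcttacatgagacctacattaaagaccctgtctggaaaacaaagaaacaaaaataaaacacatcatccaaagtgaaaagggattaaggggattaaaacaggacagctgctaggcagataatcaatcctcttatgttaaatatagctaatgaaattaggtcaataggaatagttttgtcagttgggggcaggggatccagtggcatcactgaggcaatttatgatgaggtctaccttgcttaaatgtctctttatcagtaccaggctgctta
Kdm4c, second start, chr4:74251629-74251928, plus strand: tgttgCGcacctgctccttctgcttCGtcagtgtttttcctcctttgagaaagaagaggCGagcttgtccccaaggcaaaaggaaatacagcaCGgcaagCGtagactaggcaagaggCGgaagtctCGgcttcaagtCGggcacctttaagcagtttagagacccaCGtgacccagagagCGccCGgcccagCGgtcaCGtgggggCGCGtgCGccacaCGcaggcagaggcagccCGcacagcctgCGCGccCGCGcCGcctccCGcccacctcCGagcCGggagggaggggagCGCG
The Setd2 start held 38 CG pairs, at the 95.3 percentile of the 32851 start sequences of this length. The Kdm4a start held 13. The 2 starts of Kdm4c, 9382 positions apart, held 0 and 28. The 4 starts listed for Kdm2b, not printed, held 18 to 49. The median over all starts was 7 pairs, and 94.6% of them held at least 1. The sources used here do not say how these starts lie relative to the PR window, so the letters describe the genes and are not matched to a signal.

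GB signal of the methyltransferase genes was spread from 0.00359 to 0.0128 at E11.5, with Nsd2 far above the other 4. Setd2, whose enzyme writes the trimethyl mark, had GB of 0.00359, 0.00453 and 0.00290 in stage order, on the deposited scale. Those values come from sums of 1908, 2328 and 1529 steps. If each position holds whole steps, at most 2.22, 2.71 and 1.78% of its body carried signal. Setd2 was lowest of the 9 at E11.5 and not far from the median of all identified rows, which was 0.00432, 0.00421 and 0.00371. Nsd1, mutated in human Sotos syndrome, had 0.00417, 0.00536 and 0.00572 in stage order, lowest at E11.5. Nsd2, located in the region lost in Wolf-Hirschhorn syndrome, had 0.0128, 0.00914 and 0.00244. Its E11.5 and E13.5 values were above those of the other 4 methyltransferase genes, and its E15.5 value was below all 4. Nsd3, a relative of these 2 genes, had 0.00525, 0.00473 and 0.00917 and was the highest of the 9 at E15.5. Ash1l, a homologue of a fly trithorax-group gene, had 0.00468, 0.00357 and 0.00601, lowest at E13.5.

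Among the demethylase genes Kdm4a was the highest at both earlier stages and the lowest at E15.5. Its GB was 0.0151, 0.00848 and 0.00232 in stage order. If each position holds whole steps, at most 9.34, 5.07 and 1.42% of its body carried signal. Kdm4c, the other gene of its family measured here, had 0.00506, 0.00324 and 0.00340, highest at E11.5. Kdm2a had 0.00488, 0.00292 and 0.00292. The last 2 are identical in all deposited digits although their step counts differ, 1410 and 1449; of all identified rows, 5 had such an identical value above 0 in this pair of libraries. Kdm2b, whose protein brings a Polycomb complex to CG-rich DNA, had the most level body of the 9, with 0.00608, 0.00629 and 0.00574.

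The highest GB value of Kdm2b was 1.10 times its lowest, against a median of 1.67 times over the 9 genes and 1.72 times over the 4917 rows with a body of at least 50000 positions. By the same measure Kdm4a stood at 6.52 times and Nsd2 at 5.25 times, and the other 7 genes at or below 1.94 times. Of those 4917 rows 6.30% reached 5 times, as did 11.4% of the 3958 rows with bodies of 28000 to 65000 positions, the range around Kdm4a and Nsd2. Rows with a recovered length are all above 0 in every library, because the length cannot be found otherwise.

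**Figure D1:**
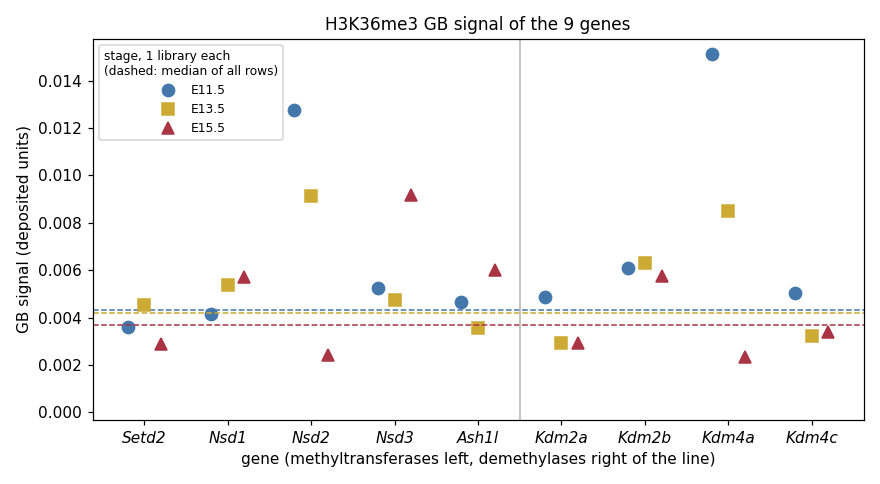
GB signal (vertical axis, deposited units) of the 5 methyltransferase and 4 demethylase genes, with 1 point per library and stage; dashed lines mark the median of all 24318 identified rows at each stage. Nsd2 and Kdm4a stand highest at E11.5, at 0.0128 and 0.0151, and lowest at E15.5, at 0.00244 and 0.00232.

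Set against all identified rows, the 9 gene bodies ranged from the 35.7 percentile (Kdm2a at E13.5) to 93.4 (Kdm4a at E11.5). Their median GB percentile was 56.7, 55.2 and 47.9 in stage order, and 7, 6 and 4 of the 9 were above the 50 percentile. Setd2 was at the 42.6, 53.3 and 44.1 percentile in stage order. Nsd1 was at 48.6, 61.1 and 62.0, Nsd3 at 58.3, 55.2 and 74.9, and Ash1l at 53.6, 42.8 and 63.4. So Nsd1, Nsd3 and Ash1l had their highest ranks at E15.5, where Nsd2 had its lowest, with 90.4, 83.4 and 40.4. Of the demethylase genes, Kdm2b stayed between 62.1 and 68.7. Kdm4a went from 93.4 through 80.8 to 39.5. Kdm2a was at 55.3, 35.7 and 44.2 and Kdm4c at 56.7, 39.2 and 47.9, both lowest at E13.5. The median percentile of the methyltransferase genes was 53.6, 55.2 and 62.0 and that of the demethylase genes 60.8, 53.9 and 46.1. The higher of these medians was that of the demethylase genes at E11.5 and that of the methyltransferase genes at E15.5, over 4 and 5 genes and with no test of the difference. These ranks count rows listed at 0 in GB, 3148, 3606 and 4943 in stage order. Among rows above 0 the median percentile of the 9 genes was 50.3, 47.4 and 34.6, and at E15.5 Kdm4a was at 24.1 and Nsd2 at 25.3.

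A longer window averages over more positions, so each gene was also ranked among rows whose window length was within 1.5 times its own, 1385 to 3781 rows per gene. The length used for other rows was the smallest that passed, which can fall short of the true length. Kdm4a then stood at the 98.6, 86.4 and 21.6 percentile and Nsd2 at 97.7, 92.3 and 23.7. Both were near the top of their length class at E11.5 and in its lower part at E15.5. Nsd3 went the other way, with 65.1, 57.8 and 91.7. Nsd1, with 46.7, 67.9 and 73.1, and Ash1l, with 55.5, 32.3 and 76.2, also stood highest at E15.5. Setd2 was at 33.0, 51.3 and 32.2, in the lower part of its class at E11.5 and E15.5. Kdm2a, with 54.6, 18.7 and 32.8, held the lowest rank of any member, at E13.5, and Kdm4c was lowest at that stage too, with 66.5, 28.8 and 47.4. Kdm2b was at 76.1, 81.1 and 74.2, in the upper part of its class at every stage.

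**Figure D2:**
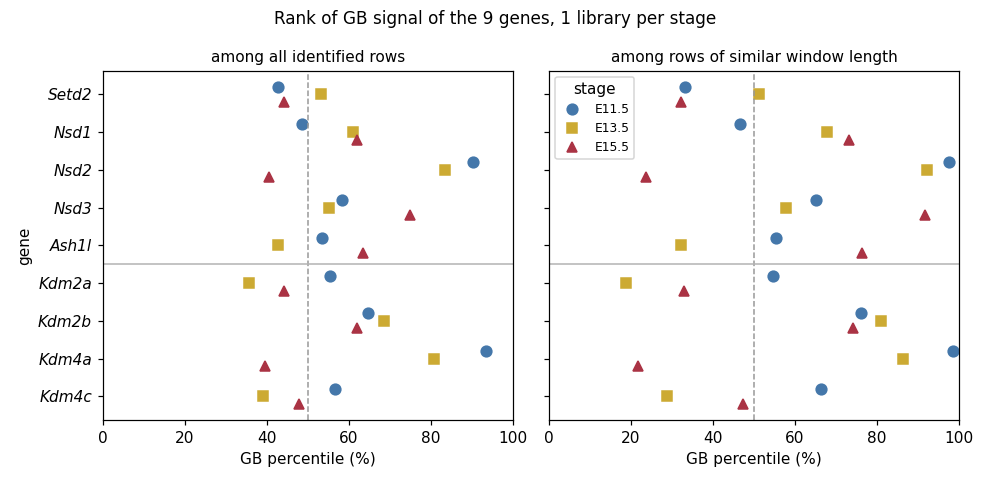
Percentile of GB signal (horizontal axis, %) of each gene among all identified rows (left) and among rows of similar window length (right), with 1 point per library. In the right panel Kdm4a goes from 98.6 to 21.6 and Nsd2 from 97.7 to 23.7 between E11.5 and E15.5, whereas Kdm2b stays between 74.2 and 81.1.

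For stage comparisons a log2 ratio, later stage over earlier stage, was computed with 0.001 added to each value, and a gene counted as higher or lower at 2-fold or more on that scale if its higher library reached a floor. A fold printed beside a gene is the plain ratio of the deposited values, without that addition. The floor is the median of all identified rows and libraries, 0.00413 for GB, 0.00407 for PR and 0.00460 for SE. Between E11.5 and E13.5 no member's body differed by 2-fold. All 9 reached the GB floor, 0 were higher and 0 lower by 2-fold, where 17.2% of rows over all lengths were higher and 19.4% lower, and 2.70% and 2.83% of rows with bodies of at least 50000 positions. The log2 ratios ran from -0.77 for Kdm4a to 0.30 for Nsd1, with a median of -0.31 beside -0.07 over all rows at the floor. The ratio was below 0 in 6 genes, the demethylase genes Kdm2a (-0.59), Kdm4a and Kdm4c (-0.51) among them, and above 0 in Setd2 (0.27), Nsd1 and Kdm2b (0.04). As plain ratios, Kdm4a was 1.78-fold, Kdm2a 1.67-fold and Kdm4c 1.56-fold lower at E13.5. Length classes hold only rows above 0 in every library and were used without the floor. In them the log2 ratios of Kdm4a, Kdm2a and Kdm4c stood at the 11.6, 11.9 and 7.62 percentile, the lowest of the 9. That of Nsd1 stood highest there, at 75.9. Among all rows at the floor these ratios stood at 24.6, 29.4 and 32.0, and that of Nsd1 at 65.1.

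Between E13.5 and E15.5, GB was at least 2-fold lower in Nsd2 (3.75-fold, log2 ratio -1.56) and Kdm4a (3.65-fold, -1.51), 2 of the 7 genes that reached the floor, where 22.1% of rows at the floor were lower. Among bodies of at least 50000 positions, a class that holds Nsd2 and not the shorter Kdm4a, 9.97% were lower. With a pseudocount of 0.005 neither gene reached 2-fold in this pair, at -0.93 for Nsd2 and -0.88 for Kdm4a. Of the 7 genes 0 were 2-fold higher, against 27.6% of rows at the floor and 6.06% of those with the longer bodies. Nsd3 and Ash1l came nearest, with log2 ratios of 0.83 and 0.62. In their length classes, used without the floor, these ratios stood at the 94.6 and 90.4 percentile, and those of Nsd2 and Kdm4a at 3.97 and 5.91. Among all rows at the floor, Nsd3 and Ash1l stood at 68.1 and 62.1, and Nsd2 and Kdm4a at 16.3 and 16.7. Kdm2a and Kdm4c missed the floor in both libraries.

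Over the whole span from E11.5 to E15.5, Nsd2 and Kdm4a were again lower, Nsd2 by 5.25-fold (log2 ratio -2.00) and Kdm4a by 6.52-fold (-2.28). They were 2 of the 8 genes at the floor, where 22.8% of all rows at the floor and 9.39% of those with bodies of at least 50000 positions were lower. A share of 2 in 8 is near the first of these figures. Ranked in their length classes without the floor, the ratios were at the 1.28 percentile for Nsd2 and 0.807 for Kdm4a. Among all rows at the floor they were at 13.8 and 12.2. Again 0 members were 2-fold higher, where 26.5% and 6.42% of rows were. Nsd3 (0.70), Nsd1 (0.38) and Ash1l (0.30) were above 0, and Kdm2a (-0.59) and Kdm4c (-0.46) below. Setd2 (-0.24) and Kdm2b (-0.07) were also below 0 but changed sign with the scaling: Setd2 was at 0.05 after quantile normalization and Kdm2b at 0.12 after division by the median GB. The methyltransferase genes had a median log2 ratio of 0.30 and the demethylase genes one of -0.52, beside 0.14 over all rows at the floor. Scaling moved that last median, by 0.19 with division by the median GB of identified rows and by -0.18 with quantile normalization, and Nsd2 and Kdm4a were lower by 2-fold under both.

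PR signal was far more uneven than GB. Nsd1 had PR of 0.00982, 0.0100 and 0.00760 in stage order, the highest of the 9 at E11.5 and E13.5 and the most level. Setd2 had 0.00291, 0.00246 and 0.0143, so the E15.5 library stood alone. Nsd3 had 0.00130, 0.000948 and 0.0373, again high at E15.5 alone. These 3 genes differed from Nsd2 and Ash1l, which were highest at E11.5. Nsd2 had 0.00561, 0.000893 and 0.00141, and Ash1l 0.00254, 0.000613 and 0.00114. These low values rest on little signal: the 0.000613 of Ash1l is 22 steps over 6000 positions.

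Of the demethylase genes, Kdm2a had PR of 0.00232, 0.00525 and 0.0622 in stage order, the last being the highest PR value of any member. It was at the 98.4 percentile of identified rows, and 2290 steps in a window of 6000 positions exceeded the 1449 steps of its whole body. At least 841 steps of that PR signal therefore lay outside the GB window. Kdm4a had 0.000917, 0 and 0.0129, high at E15.5 alone. Kdm4c had 0.00567, 0.000447 and 0, and Kdm2b had 0.000702, 0 and 0. Kdm2b was thus the gene with the most level body and the least PR signal, with 26 steps in the E11.5 window. The median PR of the 9 genes was 0.00254, 0.000893 and 0.00760 in stage order, and that of all identified rows 0.00394, 0.00368 and 0.00559. The number of identified rows listed at 0 in PR also differed between the libraries, at 1845, 2890 and 5371 in stage order. The part of this in the members' values was not tested.

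**Figure D3:**
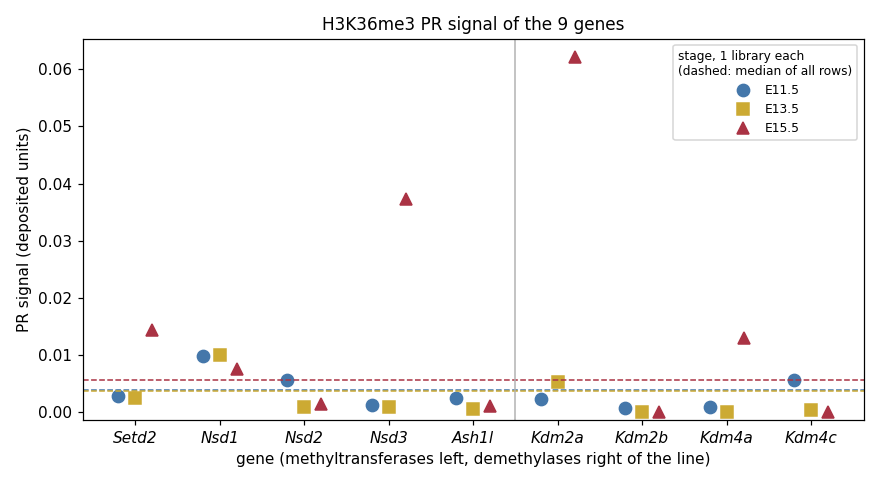
PR signal (vertical axis, deposited units) of the 9 genes, with 1 point per library; dashed lines mark the median of all identified rows at each stage. At E15.5 Kdm2a (0.0622) and Nsd3 (0.0373) stand far above the others, and Kdm2b and Kdm4c are listed at 0.

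From E11.5 to E13.5 PR was at least 2-fold lower in Nsd2 (6.28-fold) and Kdm4c (12.7-fold), 2 of the 4 genes at the PR floor, where 32.8% of rows were lower. With a pseudocount of 0.005 neither reached 2-fold, at log2 ratios of -0.85 and -0.97. Their E13.5 values were 32 and 16 steps. The higher count was 0, with 28.8% of rows higher. From E13.5 to E15.5, 4 of the 5 genes at the floor were higher: Setd2 by 5.84-fold, Nsd3 by 39.3-fold, Kdm2a by 11.9-fold, and Kdm4a, which was listed at 0 at E13.5. The Nsd3 fold divides by a value of only 34 steps. Its log2 ratio was 4.30, and 2.83 with a pseudocount of 0.005. In this pair 52.2% of rows at the floor were higher and 24.7% lower. Of the members 0 were lower, and Nsd1 had a log2 ratio of -0.36. The median log2 ratio of all rows at the floor was 1.12, so most of the table stood higher in PR at E15.5, and quantile normalization moved that median by -1.01.

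Over the whole span PR was higher in Setd2 (4.92-fold), Nsd3 (28.8-fold), Kdm2a (26.8-fold) and Kdm4a (14.1-fold). A share of 4 in the 7 genes at the floor is near that of all rows there, 50.0%. The E11.5 values behind these folds were low, at 108, 48, 86 and 34 steps. Nsd2 was lower by 3.98-fold, and Kdm4c was lower and listed at 0 at E15.5, beside 26.0% of rows. The call of Nsd2 was lost with a pseudocount of 0.005, at a log2 ratio of -0.73. These 6 were among the 7 genes at the floor, and Nsd1 was the other, with a log2 ratio of -0.33. The log2 ratios of Kdm2a (4.25) and Nsd3 (4.06) were at the 96.4 and 95.0 percentile of rows at the floor. Those of Setd2 (1.97) and Kdm4a (2.86) were at the 67.7 and 82.1 percentile. Quantile normalization, which moved the median of rows at the floor by -0.89, left Setd2, Nsd3, Kdm2a and Kdm4a higher by 2-fold or more and brought Nsd1 to -1.14.

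SE covers 12000 positions, taken to be those of PR and 6000 others. Values outside PR rest on that reading, and any that came out below 0 were set to 0. Setd2 had SE of 0.0110, 0.00145 and 0.0121 in stage order, with the E13.5 library low. Outside PR its signal was 0.0191, 0.000447 and 0.00988, so the E11.5 and E15.5 values were the high ones there too. Nsd3 had 0.000647, 0.000474 and 0.0215 and Kdm2a 0.00586, 0.00349 and 0.0313, both highest at E15.5. In Kdm2a nearly all SE signal of that stage was PR signal, 2290 of 2302 steps, and in Kdm4a it was all of it, 476 of 476. Kdm4a had SE of 0.00286, 0.000949 and 0.00646. Nsd2, with 0.00407, 0.00879 and 0.00141, was highest at E13.5 through positions outside PR (0.0167). Nsd1 had 0.00666, 0.00731 and 0.00475, and Ash1l 0.00224, 0.000362 and 0.000570. Kdm2b had 0.00116, 0.00282 and 0.00255. Kdm4c had 0.00505, 0.00474 and 0, listed at 0 at E15.5 in PR and SE while its body kept 3414 steps.

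By 2-fold, SE was lower at E13.5 than at E11.5 in Setd2 (7.59-fold), 1 of 5 genes at the floor, beside 24.8% of rows, and higher in 0, beside 19.9%. At E15.5 against E13.5, SE was higher in Setd2 (8.35-fold), Nsd3 (45.4-fold), Kdm2a (8.96-fold) and Kdm4a (6.81-fold), 4 of 7 genes beside 45.7% of rows. It was lower in Nsd2 (6.23-fold) and Kdm4c (listed at 0 at E15.5), beside 17.9%. With a pseudocount of 0.005 Kdm4a (0.95) and Kdm4c (-0.96) did not reach 2-fold in this pair. The Nsd3 fold divides by a value of 34 steps, and its log2 ratio of 3.93 became 2.28 at that pseudocount. Over the whole span SE was higher in Nsd3 (33.2-fold, from 48 steps) and Kdm2a (5.34-fold), 2 of 6 genes beside 42.7% of rows. It was lower in Kdm4c, beside 19.7%. Setd2 was nearly level in SE over that span, with a log2 ratio of 0.13 that became -0.65 after quantile normalization.

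The ratio of PR to GB, in which the scale of a library cancels, set these genes apart from each other. PR was below GB in 7 of 9 genes at E11.5 and E13.5, Nsd1 (2.36 and 1.88) being above at both, Kdm4c (1.12) at E11.5 and Kdm2a (1.80) at E13.5. The 2 genes above compare with 39.9% of identified rows with GB above 0 at E11.5 and 38.1% at E13.5, and with 41.4 and 40.4% of bodies of at least 50000 positions. At E15.5, 5 genes had PR above GB: Kdm2a at 21.3, Kdm4a at 5.57, Setd2 at 4.95, Nsd3 at 4.07 and Nsd1 at 1.33. At that stage 51.9% of identified rows and 57.2% of the longer bodies had PR above GB, so 5 of 9 is near the background. The median ratio of the 9 genes was 0.475, 0.172 and 1.33 in stage order, and that of rows with bodies of at least 50000 positions 0.765, 0.756 and 1.52. Set against those rows at E15.5, Kdm2a was at the 98.9 percentile, Kdm4a at 83.5, Setd2 at 80.7, Nsd3 at 75.1 and Nsd1 at 47.2. The body of Kdm4a is shorter than that class. Among all identified rows with GB above 0 its ratio was at 89.2. Kdm4a was at 0.0606 at E11.5, the lowest of the 9, and at 5.57 at E15.5.

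PR and GB went opposite ways by 2-fold in Kdm4a. From E11.5 to E15.5 its GB was lower and its PR higher, 1 of 6 genes at both floors, a pattern found in 4.04% of the 13713 rows at both floors. From E13.5 to E15.5 it was 1 of 4, beside 4.29%, a call that the pseudocount of 0.005 ended through GB (-0.88). In Nsd2 both columns were lower over the whole span, as in 11.6% of rows, with the PR call lost at that pseudocount (-0.73). The other patterns held 0 members: over the whole span 21.3% of rows had both columns higher and 1.68% had GB higher and PR lower. From E13.5 to E15.5, 22.8% had both higher, 10.8% both lower and 1.49% GB higher with PR lower. At E15.5 the Kdm4a PR window held 476 steps and its body 613, whereas at E11.5 these were 34 and 4020.

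**Figure D4:**
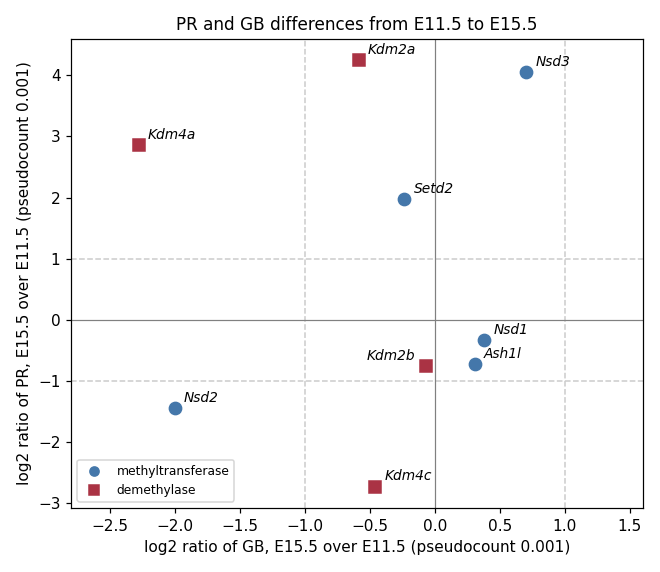
Log2 ratio of PR (vertical axis) against log2 ratio of GB (horizontal axis) for E15.5 over E11.5, pseudocount 0.001, with 1 point per gene; dashed lines mark 2-fold. Kdm4a lies at -2.28 in GB and 2.86 in PR, Nsd2 is below 0 in both, and Kdm2a (4.25) and Nsd3 (4.06) lie highest in PR without a 2-fold difference in GB.

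In the order of GB, Kdm4a and Nsd2 were ranks 1 and 2 at E11.5, ranks 2 and 1 at E13.5 and ranks 9 and 8 at E15.5. Kdm2b was rank 3 at every stage. No spread between libraries of a stage was measured, so neighbours in this order cannot be told apart. For likeness to Setd2, the distance over log2(GB + 0.001) of the 3 libraries was taken across rows with bodies of at least 50000 positions. The 3 nearest rows lay at 0.0336 to 0.0577 and are unnamed, since the reference gave no symbol for them. The nearest members were Kdm4c (0.581) and Kdm2a (0.613), with 1037 and 1152 rows nearer than they were.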

How the data were processed

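Per the submitters' processing notes, reads were aligned with Bowtie2 2.4.2 to mm10; filtering, counting, scaling and gene models are not given there. The authors deposited 3 tables of 25493 rows with signal (mean coverage) in PR, GB and SE columns, per the file headers. Rows without an identifier, 1175 (4.61%), were left out. Steps and window lengths were recovered from the values with Python 3.11.15, numpy 2.4.6 and numba 0.67.0 and checked on simulated windows. At a tolerance of 0.05 steps at least 99.99% of PR and SE values above 0 were whole. A length between 200 and 1000000 positions was accepted where the GB sums of all 3 libraries were whole steps, for 17590 rows. For the 9 genes the largest such length not above the RefSeq length was kept, and for other rows the smallest. Percentiles split ties. Groups are the 3 labelled stages, 1 library each, so no test was run. The members and lists were chosen with earlier results of these data known. The 9 members are named by the symbols of the rule that chose them; no other gene is named. Alternatives were other pseudocounts, floors, a 1.5-fold threshold, scalings, and other sets of rows for percentiles.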

Additional observations from a re-analysis of the deposited data

How the results depend on the processing

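Kdm4a and Nsd2 stayed at least 2-fold lower in GB at E15.5 than at E11.5 under the alternatives run except the pseudocount of 1, which compresses all ratios and left 0 members called in any column or pair. Division by the median GB above 0 was chosen after seeing the data and kept every count of members. The pseudocount of 0.005 gave 0 lower in GB for E15.5 against E13.5 and in PR for E13.5 against E11.5, and 1 lower in PR over the whole span and in SE for E15.5 against E13.5. It also gave 3 higher in SE for E15.5 against E13.5. The pseudocount of 0.0001 and quantile normalization each gave 1 higher in PR and in SE for the first pair. Quantile normalization also gave 1 lower for the second pair in PR and 3 lower there in SE, and 3 lower in PR over the whole span. Division by the median GB gave 1 lower in SE for E15.5 against E13.5. Without a floor, and with a floor 5 times lower, SE had 2 members lower for the first pair and 3 over the whole span. In these settings PR had 3 members lower for the first pair. The 1.5-fold threshold gave 2 lower for the first pair in GB and in SE, 1 higher in PR and in SE there, and 2 and 1 higher in GB for E15.5 against E13.5 and against E11.5. It also gave 3 lower in GB for E15.5 against E11.5. Over the whole span SE had 3 members higher under that threshold, the pseudocount of 0.0001 and division by the median GB. The median PR percentile at E13.5 was 14.9 among rows above 0. With the part of SE outside PR in place of PR, the median ratio to GB was 0.593 at E13.5 and 0.332 at E15.5. The causes were not tested beyond what each alternative's construction gives. No paired analysis was possible because a stage is a single library. How many reads lie behind each file is not stated, and alternatives by gene lists were not run for lack of symbols.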
